A study of Drosophila melanogaster with 24 samples.

Results

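The Cpr family is the set of *Drosophila melanogaster* genes for cuticle proteins that carry the Rebers and Riddiford consensus, a chitin-binding domain. Members were the protein-coding genes whose FlyBase symbol is Cpr followed directly by a digit, the digits and letter giving the cytological position. They numbered 70 of the 13728 protein-coding genes in a table of 17370 genes. Most lie in clusters, with 49 of the 70 within 10 kb of another member, and 35 on 3L, 21 on 2R, 5 each on 2L and 3R and 4 on X (BDGP6). They are short genes, with a median of 862.5 bp of exon against 1732 bp over all genes. The gene *Cpr*, which has no digit and encodes the cytochrome P450 reductase, is not a member.

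The RNA of single embryos was sequenced, so that each library is 1 animal. AcfC embryos carry a CRISPR/Cas9 deletion of *Acf*, the gene for the signature subunit of the remodelers ACF and CHRAC, in a line backcrossed to *OrR* for 8 generations. Wild-type (WT) embryos were of the *OrR* strain. The groups were AcfC at Bownes Stage 8 (around 4 h, after zygotic genome activation, ZGA), WT at Stage 8, AcfC at Stage 3 (around 1 h, before ZGA) and WT at Stage 3, with 6 embryos each. Only a single deletion allele was used, and embryos were staged by eye under oil. AcfC Stage 3 replicate 2 was left out of tests and means, as an embryo of improper stage.

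The insect cuticle is built of chitin fibres embedded in a matrix of proteins, and Cpr proteins are its largest protein family. Epidermal cells and other ectodermal epithelia secrete it. In the embryo this takes place late, long after gastrulation, and each molt later repeats it under pulses of ecdysone. The design therefore asks how much RNA of these late genes is present before ZGA and shortly after it, and whether that amount differs without *Acf*.

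The libraries held 4213692 to 11935129 counts in all and 2030997 to 7639980 on protein-coding genes. All levels below are counts per 1000000 protein-coding counts (CPM). *Acf* itself had 39.5 to 65.9 CPM in AcfC Stage 8 embryos against 465 to 497 CPM in WT, and 102 to 141 CPM in AcfC Stage 3 embryos against 623 to 705 CPM in WT. Summed maternal markers stood at 1682 to 2295 CPM at Stage 3 and were 8.85 to 66.5 CPM at Stage 8, and zygotic markers showed the opposite order, as the stage labels state.

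Few Cpr transcripts were counted at any stage. Of the 70 members, 21 had 0 counts in all 24 embryos, which allows each up to 0.0251 CPM (3 counts in 119357606). Another 17 had 1 to 3 counts in all, and 22 had more than 10. The share of members with any count (70%) was below that of all protein-coding genes (87.9%) and close to those of 179 chemoreceptor genes (68.7%) and 55 other cuticle protein genes (72.7%).

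The members at 0 were *Cpr23B*, *Cpr30B*, *Cpr47Eb*, *Cpr47Ec*, *Cpr47Ed*, *Cpr49Ab*, *Cpr49Ad*, *Cpr49Ag*, *Cpr57A*, *Cpr62Ba*, *Cpr65Ax1*, *Cpr65Ax2*, *Cpr65Eb*, *Cpr65Ec*, *Cpr67Fa1*, *Cpr67Fb*, *Cpr76Ba*, *Cpr76Bb*, *Cpr76Bc*, *Cpr92A* and *Cpr92F*. Several belong to gene clusters in which a neighbour was counted. *Cpr65Ax1* with *Cpr65Ax2* and *Cpr67Fa1* with *Cpr67Fa2* are duplicate pairs, whose reads the counting may have lost or split.

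Of the 49 members with a count, 25 had counts at Stage 8 only, 20 at both stages and 4 at Stage 3 only (*Cpr47Ef*, *Cpr65Ea*, *Cpr72Eb* and *Cpr97Eb*). Only *Cpr60D*, *Cpr78Cb* and *Cpr78Cc* had counts in all 12 Stage 8 embryos, and only *Cpr72Ec* in all 12 Stage 3 embryos. Of the 45 members counted at Stage 8, 18 were counted in fewer than 3 embryos there.

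**Figure D1:**
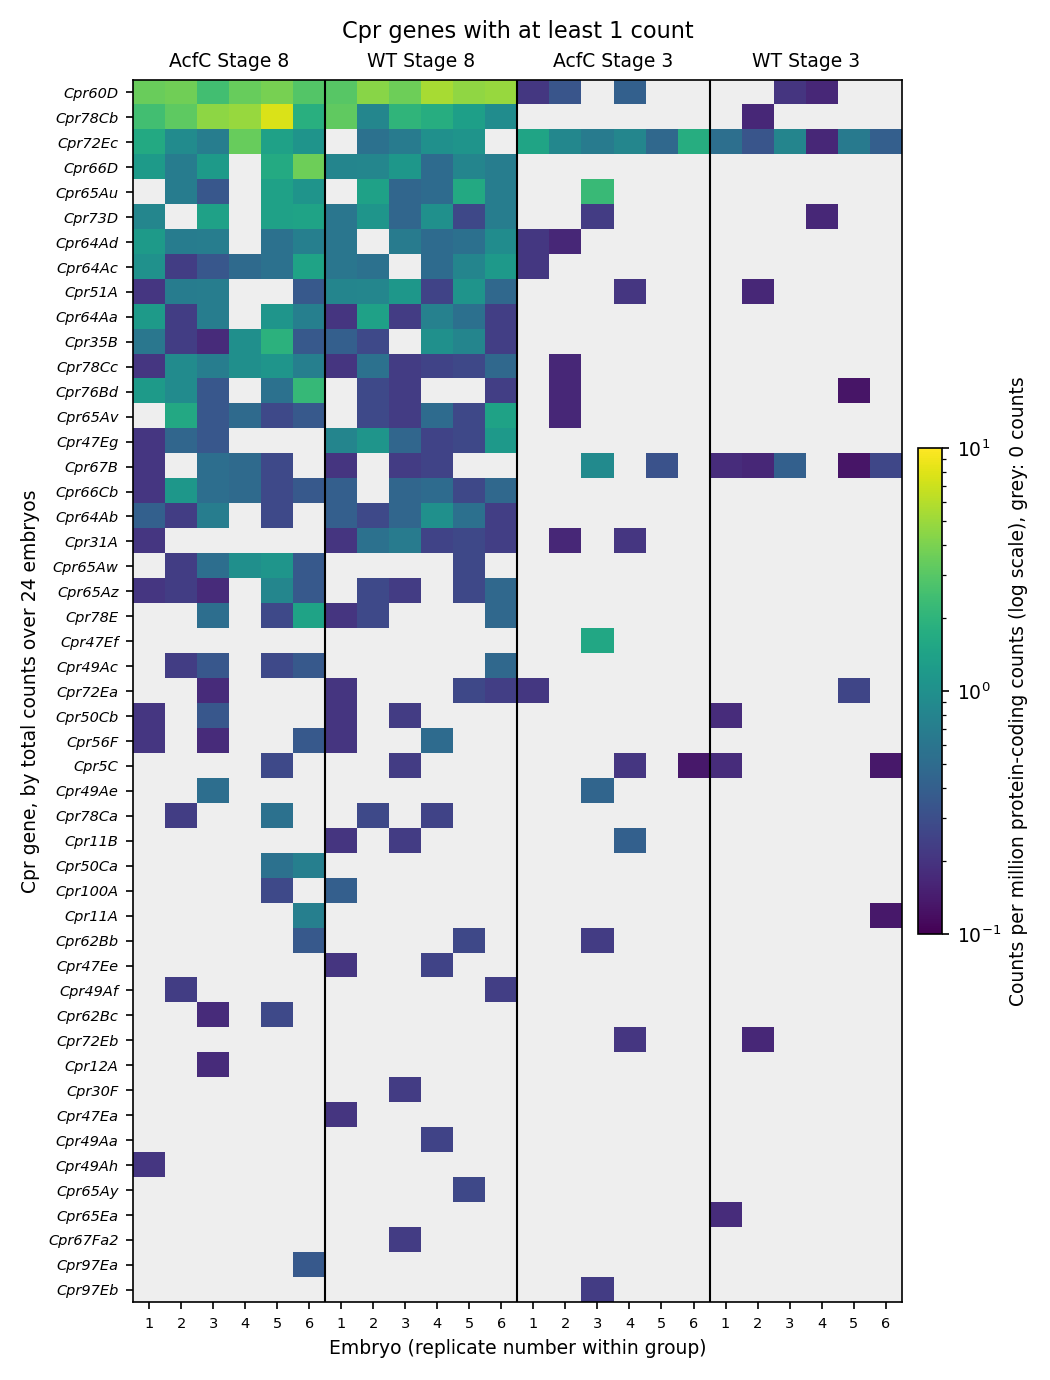
Level of each of the 49 Cpr genes with at least 1 count (rows, ordered by total counts) in each of the 24 embryos (columns, by group and replicate number), in CPM on a log colour scale, with grey for 0 counts. Most coloured cells lie in the 12 Stage 8 columns and in the upper rows, while *Cpr72Ec* is coloured in every Stage 3 column, including AcfC replicate 2, which was left out of tests.

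Summed over the family, Stage 8 embryos held more Cpr RNA than Stage 3 embryos in both genotypes. In AcfC the sum was 16.7, 18.8 and 28.8 CPM (lowest, median and highest) at Stage 8, against 2.31, 6.57, 2.48, 0.794 and 1.89 CPM in the 5 embryos at Stage 3. In WT it was 14.4, 16.5 and 17.5 CPM at Stage 8, against 0.502, 1.09 and 1.43 CPM at Stage 3. Every Stage 8 embryo lay above every Stage 3 embryo of its genotype. Such a rise was not limited to Cpr genes. Summed chemoreceptor genes had medians of 165 CPM at Stage 8 and 14.2 CPM at Stage 3 in AcfC. In WT their medians were 150 CPM at Stage 8 and 14.9 CPM at Stage 3. Summed genes of chitin and cuticle formation ran the other way. Their medians at Stage 8 and Stage 3 were 83.8 and 210 CPM in AcfC, and 73.7 and 252 CPM in WT.

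Pooled over embryos, 481 Cpr counts at Stage 8 against 71 at Stage 3 gave a ratio of CPM of 8.06 in AcfC (95% exact interval 6.27 to 10.5). In WT, 399 against 39 counts gave 15.4 (11.1 to 22.0). These and all later intervals take the counts as independent, so they cover counting error only and not the spread between embryos. Reads were not marked with molecular identifiers, so even the counting error may be larger. The sums are descriptions and were not tested, since a score over chosen members carries no *P*-value.

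**Figure D2:**
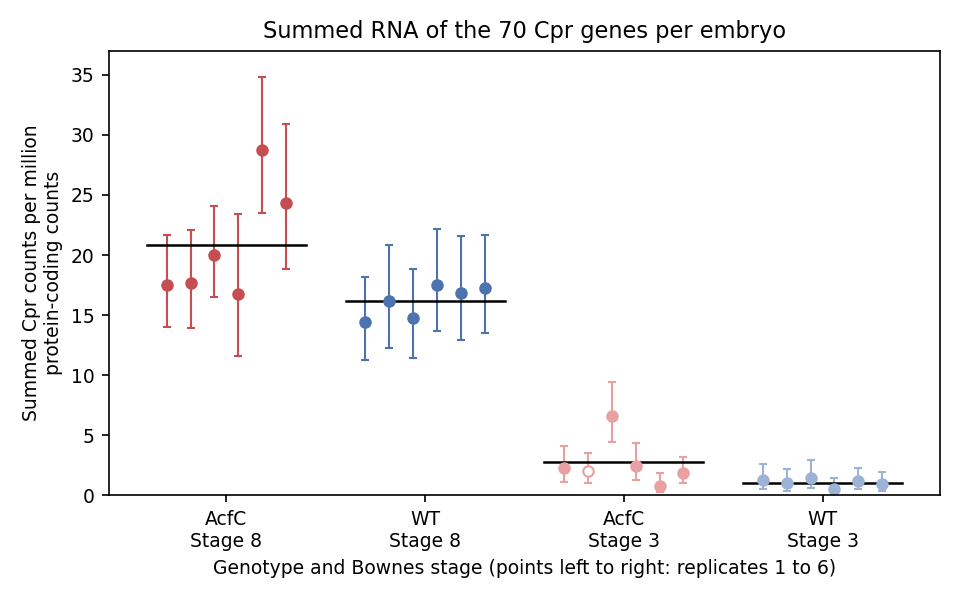
Summed CPM of the 70 Cpr genes (vertical axis) in each embryo, by genotype and stage, with 95% Poisson intervals for counting error as bars, group means as lines, and the embryo left out of tests as an open point. Stage 8 embryos sit between 14.4 and 28.8, above every Stage 3 embryo, of which AcfC replicate 3 is the highest at 6.57.

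The Stage 8 level was low and was held by few members. The 8 members with most counts took 62.3% of the 880 Cpr counts at Stage 8, and *Cpr60D* and *Cpr78Cb* alone took 36.6%. Per kilobase of exon, *Cpr60D* was highest at 5.70 CPM per kb, above 59.1% of protein-coding genes. *Cpr78Cb* followed at 1.36, *Cpr65Au* at 1.22, *Cpr47Eg* at 1.09 and *Cpr78Cc* at 0.995 CPM per kb, each above fewer than 50% of protein-coding genes.

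*Cpr60D* lies on 2R (24662682 to 24663406, BDGP6, minus strand), 2 exons long and without another member near it. *CG30161*, 126 bp away, had 87 counts in AcfC and 143 in WT at Stage 8, and 5 in AcfC and 2 in WT at Stage 3. The part of *CG30161* reads in the *Cpr60D* value was not tested. At Stage 8 *Cpr60D* reached 2.46, 3.47 and 3.87 CPM (lowest, median, highest) in AcfC and 3.04, 4.53 and 5.51 CPM in WT. At Stage 3 it had 3 counts in 5 AcfC embryos and 2 in 6 WT embryos. All Stage 8 embryos lay above all Stage 3 embryos in each genotype. The pooled ratio of Stage 8 to Stage 3 was 30.2 in AcfC (9.94 to 149) and 80.8 in WT (21.8 to 675).

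*Cpr78Cb* belongs to a cluster of 3 members on 3L (21291860 to 21301171) with *Cpr78Ca* and *Cpr78Cc*, and *Edg78E*, another cuticle protein gene, lies 65 bp from it. It had 1.82, 3.89 and 7.74 CPM at Stage 8 in AcfC and 0 counts in the Stage 3 embryos of that genotype. In WT it had 0.834, 1.56 and 3.24 CPM at Stage 8 and 1 count at Stage 3. The Stage 8 level was thus at least 37.7-fold higher in AcfC, set against a floor of 3 counts over the group, and 66.4-fold higher in WT (11.3 to 2682).

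*Cpr78Cc* showed the same separation of stages, with 0.206, 0.822 and 1.11 CPM in AcfC and 0.203, 0.261 and 0.556 CPM in WT at Stage 8. It had 0 counts in the Stage 3 embryos compared, and its level was at least 6.75-fold higher at Stage 8 in AcfC and at least 4.03-fold higher in WT. *Cpr66D*, a single gene on 3L, was also at 0 at Stage 3 in both genotypes. Its pooled level at Stage 8 was at least 12.7-fold higher in AcfC and at least 10.1-fold higher in WT, although 1 AcfC embryo, the smallest library, had none.

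The 4 genes *Cpr64Aa* to *Cpr64Ad* lie next to each other on 3L (4207838 to 4216414) within the span of *CG43367*. Together they had 0.492, 2.47 and 3.91 CPM in AcfC and 1.36, 2.33 and 2.75 CPM in WT at Stage 8. At Stage 3 they had 2 counts in AcfC and 0 in WT. *CG43367*, which lies on the opposite strand for all but *Cpr64Ad*, ran the other way, with medians of 67.6 CPM in AcfC and 77.1 CPM in WT at Stage 8, against 240.1 CPM in AcfC and 265 CPM in WT at Stage 3.

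*Cpr73D* shares exon sequence with *Ogdh*, a gene of the citric acid cycle on the opposite strand, which the nondirectional libraries cannot separate. At Stage 8 it had 0, 1.10 and 1.45 CPM in AcfC and 0.272, 0.658 and 1.11 CPM in WT, and 1 count in each genotype at Stage 3. *Ogdh* had medians of 304 CPM in AcfC and 340.1 CPM in WT at Stage 8, against 225 CPM in AcfC and 219 CPM in WT at Stage 3. The part of *Ogdh* reads in the *Cpr73D* value was not tested.

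**Figure D3:**
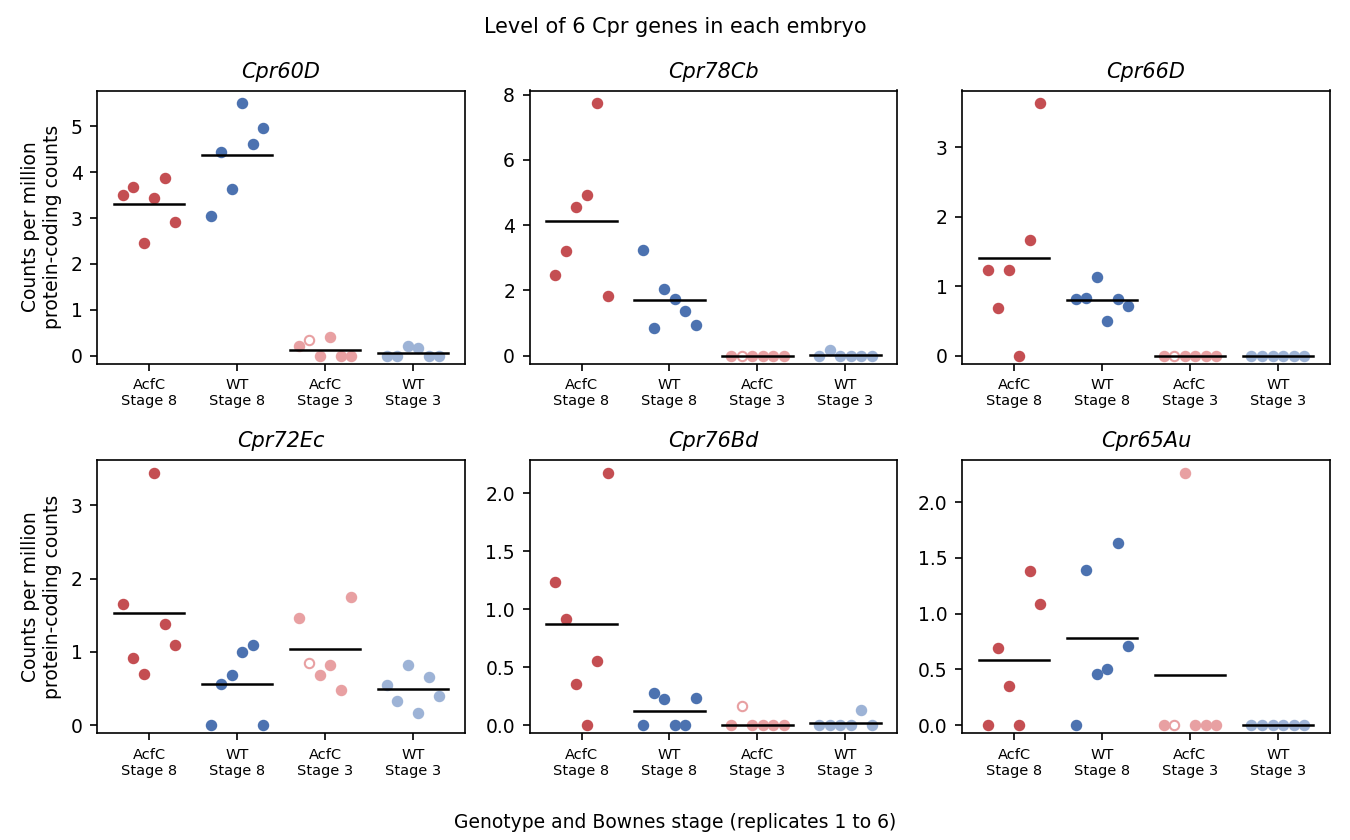
CPM of 6 Cpr genes in each embryo, by genotype and stage (points left to right are replicates 1 to 6, lines are group means, open points mark the embryo left out of tests). *Cpr60D* and *Cpr78Cb* separate the stages completely, *Cpr72Ec* does not, *Cpr76Bd* is near 0 outside AcfC Stage 8, and *Cpr65Au* is at 0 in all Stage 3 embryos but 1.

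Tested between stages across all genes (edgeR quasi-likelihood test, Benjamini-Hochberg adjusted *P* under 0.1), every member that passed the threshold was higher at Stage 8. In AcfC, 9 members passed the filter of counts in more than 50% of the embryos, and 7 were called, all higher, where 86.2% of all genes tested were called and 51.5% were higher. These were *Cpr35B*, *Cpr60D*, *Cpr64Ac*, *Cpr64Ad*, *Cpr66Cb*, *Cpr78Cb* and *Cpr78Cc*. Of the 9, 4 had 0 counts at Stage 3 (*Cpr35B*, *Cpr66Cb*, *Cpr78Cb* and *Cpr78Cc*). These, *Cpr60D* and *Cpr64Ac* had counts in all 6 Stage 8 embryos, which alone met the filter, so that 6 of the 7 calls belong to members that passed through the stage where they were high, and the count of calls is no support by itself. With this limit, the log2 fold change of *Cpr60D* was 4.73 (SE 0.64, adjusted *P* = 5.37e-06).

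In WT, 6 members were tested and 4 were called, all higher, where 88.1% of all genes were called and 48.5% were higher. The 4 had counts in all 6 Stage 8 embryos, but at Stage 3 in only 1 embryo (*Cpr51A*, *Cpr73D* and *Cpr78Cb*) or 2 embryos (*Cpr60D*). They thus passed the filter mainly through the stage where they were high, and here too the count of calls is no support by itself. *Cpr60D* was higher by 5.96 on the log2 scale (SE 0.52, adjusted *P* = 7.3e-09), *Cpr78Cb* by 5.25 (SE 0.76, adjusted *P* = 1.33e-06), *Cpr51A* by 4.09 (SE 0.84, adjusted *P* = 4.25e-05) and *Cpr73D* by 3.94 (SE 0.84, adjusted *P* = 5.9e-05).

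Without the filter, 24 of 42 members were called in AcfC (49.3% of all genes were higher) and 23 of 41 in WT (50.9%), again all higher. Of these, 18 were common to both, which is 75% of the AcfC calls and 78.3% of the WT calls. Some of the calls rest on 2 counts at Stage 8 against 0 at Stage 3 (*Cpr62Bc* in AcfC, and *Cpr11B*, *Cpr47Ee*, *Cpr78Ca* and *Cpr100A* in WT). A member at 0 at Stage 3 could only be called higher, so that the direction of such calls is no support by itself. Counted by embryos, 6 of the 42 members in AcfC and 10 of the 41 in WT had every Stage 8 embryo above every Stage 3 embryo. These are smaller shares than the 28.6% and 30.6% of all genes with a count. Such a separation needs a count in every Stage 8 embryo, which only 7 members had in AcfC and 10 in WT. No member had every Stage 8 embryo below every Stage 3 embryo, as 24.6% of genes in AcfC and 25.5% in WT did. Only *Cpr72Ec* had a count in every Stage 3 embryo, so no other member could, and this absence is no support by itself.

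Single genes and small clusters made up the rest of the Stage 8 counts. *Cpr35B*, on 2L and far from any other member, had 0.176, 0.490 and 1.94 CPM in AcfC and 0, 0.342 and 1.00 CPM in WT at Stage 8 and 0 counts at Stage 3. It was at least 5.95-fold higher at Stage 8 in AcfC and at least 5.54-fold higher in WT. *Cpr66Cb*, also at 0 at Stage 3, was at least 4.76-fold higher in AcfC and at least 4.53-fold higher in WT.

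*Cpr51A* had 0, 0.284 and 0.703 CPM in AcfC and 0.250, 0.823 and 1.14 CPM in WT at Stage 8, and 1 count in each genotype at Stage 3. The pooled ratio of Stage 8 to Stage 3 was 10.7 in AcfC (1.48 to 469.6) and 28.7 in WT (4.56 to 1192). In the 64A cluster, *Cpr64Ac* and *Cpr64Ad* had 1 count each at Stage 3 in AcfC, and ratios of 17.9 (2.75 to 752) and 20.2 (3.17 to 846).

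Within clusters the counts were uneven. In the 65A cluster (7 members on 3L, 6131242 to 6161589), 5 members were counted, which summed to 0.206, 1.83 and 3.60 CPM in AcfC and 0, 1.47 and 2.72 CPM in WT at Stage 8. The 47E cluster (7 members on 2R) had 5 counts in AcfC and 20 in WT at Stage 8, and the 49A cluster (8 members on 2R) had 10 in AcfC and 4 in WT. *Cpr65Aw*, named after its values were seen and kept out of the test by the filter, had 11 counts in 5 AcfC embryos and 1 count in 1 WT embryo at Stage 8.

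*Cpr72Ec* was the exception among the well counted members, since it was present at both stages. This gene without introns lies on 3L (16365894 to 16367340, minus strand), 187 bp from *Cpr72Eb*. At Stage 3 it had 0.476, 0.826 and 1.75 CPM (lowest, median, highest) in AcfC and 0.167, 0.472 and 0.819 CPM in WT. At Stage 8 it had 0.703, 1.24 and 3.45 CPM in AcfC and 0, 0.619 and 1.09 CPM in WT. The stages overlapped in both genotypes.

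The log2 fold change of *Cpr72Ec* between stages was 0.58 in AcfC (SE 0.50, adjusted *P* = 0.28) and 0.30 in WT (SE 0.67, adjusted *P* = 0.669) by edgeR. It made up 42.3% of the Cpr counts at Stage 3 in AcfC (Wilson interval 31.5 to 53.8%) and 46.2% in WT (31.6 to 61.4%). Its neighbours *Cpr72Ea* and *Cpr72Eb* had at most 2 counts in any embryo. *Cpr67B*, the other member tested in every comparison, had 6 counts at Stage 8 and 6 at Stage 3 in AcfC, and 3 counts at Stage 8 and 7 at Stage 3 in WT, and was not called between stages. *CG4022*, 5 bp from *Cpr67B*, had medians of 83.1 CPM in AcfC and 92.3 CPM in WT at Stage 8, and 95.6 CPM in AcfC and 107 CPM in WT at Stage 3. The part of *CG4022* reads in the *Cpr67B* value was not tested.

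The remaining Stage 3 counts were scattered, and 1 embryo held many of them. AcfC Stage 3 replicate 3 had 29 Cpr counts, of which 10 were on *Cpr65Au* and 7 on *Cpr47Ef*, a member with 0 counts in the other 23 embryos. *Cpr65Au* had 0 counts in the other 11 Stage 3 embryos, including the one left out of the tests. Its exons overlap the antisense RNA *asRNA:CR46005*, which had 0 counts in the Stage 3 embryos of the tests. This embryo also had the highest sum of late embryo muscle markers at Stage 3 (6.57 CPM), whose part in the result was not tested. Adult fly markers summed to 1.13 CPM in it. At Stage 3 they were highest in WT replicate 4 (147 CPM) and AcfC replicate 4 (81.3 CPM), and their part was not tested either. Without AcfC replicate 3 the highest AcfC sum of Cpr counts at Stage 3 was 2.48 CPM.

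The number of members detected per embryo followed the sums. At Stage 8, 10, 22.5 and 28 members had a count (lowest, median, highest) in AcfC and 19, 22 and 23 in WT, against 2, 5 and 8 in AcfC and 3, 4 and 5 in WT at Stage 3. The AcfC embryo with 10 was the smallest library (2030997 protein-coding counts), and the others had at least 21. At the depth of that library, 16.5 ± 4.15 members would be expected in AcfC and 15.4 ± 0.80 in WT at Stage 8 (SD, n = 6 each), against 2.98 ± 1.94 in AcfC (n = 5) and 1.75 ± 0.41 in WT (n = 6) at Stage 3.

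**Figure D4:**
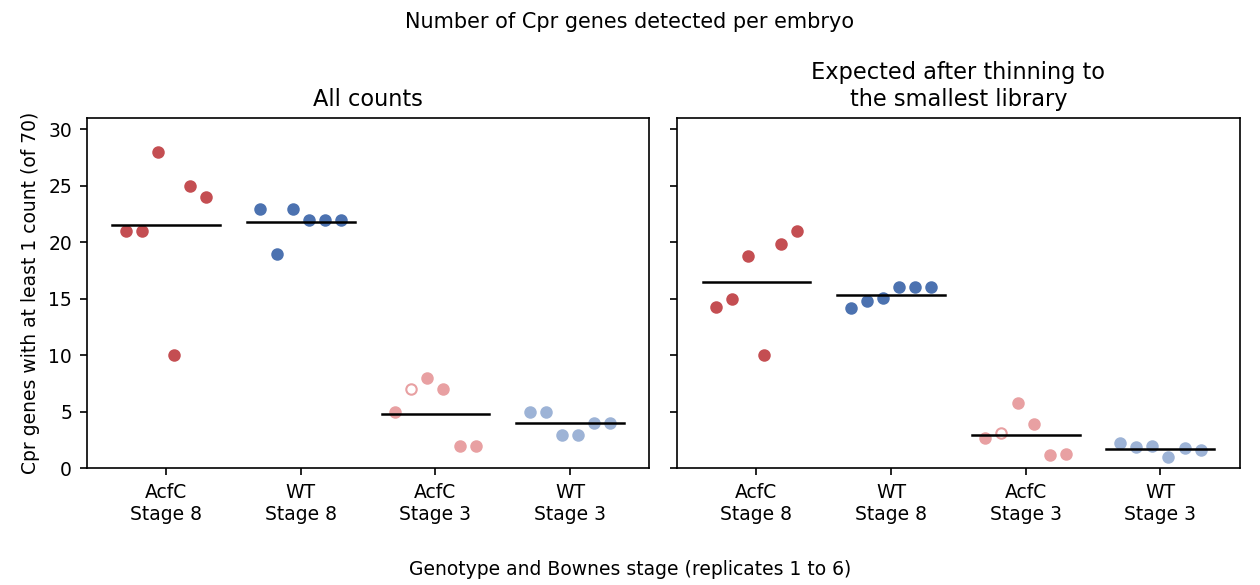
Number of the 70 Cpr genes with at least 1 count in each embryo (vertical axis) from all counts (left) and in expectation after thinning every embryo to 2030997 protein-coding counts (right), by genotype and stage, with group means as lines and the embryo left out of tests as an open point. The stages separate in both panels, and the genotypes overlap at each stage.

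Between genotypes at Stage 8, no member passed the threshold by edgeR, and 1 passed it by DESeq2, the tool of the study. The family sum was higher on average in AcfC with overlapping embryos. The sum was 20.8 ± 4.77 CPM in AcfC and 16.1 ± 1.30 CPM in WT (SD, n = 6 each). It was 17.5, 17.7, 20.0, 16.7, 28.8 and 24.3 CPM in AcfC replicates 1 to 6, and 4 of these lay above the highest WT embryo (17.5 CPM). The pooled ratio was 1.28 (1.12 to 1.47). In bulk RNA of a whole embryo, more cells that express a gene and more RNA per cell cannot be told apart.

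The spread in AcfC came mainly from replicates 5 and 6. Replicate 5 also stood apart in late embryo muscle markers, with 44.8 CPM summed over 5 genes, against 0.985 to 6.17 CPM in the other AcfC and 0.543 to 3.18 CPM in the WT embryos. *Mhc* (muscle myosin heavy chain) reached 25.4 CPM there, and *Act57B*, *Mlc1*, *up* and *wupA* were all counted. It also had the highest sum of larva markers (22.7 CPM), of which *Lsp1gamma*, a larval serum protein gene, was called higher in AcfC (log2 fold change 1.40, SE 0.40, adjusted *P* = 0.0919).

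Without replicate 5, the Cpr sum averaged 19.3 CPM in AcfC and 16.1 CPM in WT. The part of these markers, and of any difference in age within the stage, in the Cpr sum was not tested. Index sequences recur between replicates 1 to 3 and replicates 4 to 6, which were taken as 2 sets. Within the first set the Cpr sum averaged 18.4 CPM in AcfC and 15.1 CPM in WT, and within the second set 23.3 CPM in AcfC and 17.2 CPM in WT.

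Of the 70 members, 20 passed the filter at Stage 8. By edgeR 0 of them were called, where 4.28% of 9448 genes were, and 5 had an unadjusted *P* under 0.05, where 16.2% of all genes did. DESeq2 called 1, where it called 6.91% of genes. The log2 fold change was positive for 14 and negative for 6, with a median of 0.36, against 0.01 over all genes tested. The median was also above 0 in lists like this one. It was 0.24 for 45 chemoreceptor genes, 0.22 for 15 other cuticle protein genes and 0.08 for 17 genes of chitin and cuticle formation. Over all 45 members counted at Stage 8, the pooled level was higher in AcfC for 30 and lower for 15. The matching split over all genes was not computed. Among the 30, *Cpr5C*, *Cpr49Af*, *Cpr56F*, *Cpr62Bb* and *Cpr64Ac* had equal counts in both genotypes and were higher only through the smaller pooled depth of AcfC. Others, in both directions, rest on 1 count against 0, so the split is no support for a rise of the family. No member separated the embryos of the genotypes in either direction, where 0.99% of genes with a count did so upwards and 0.906% downwards. Such a separation needs a count in every embryo of the higher group, which only 7 members had in AcfC and 10 in WT.

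**Figure D5:**
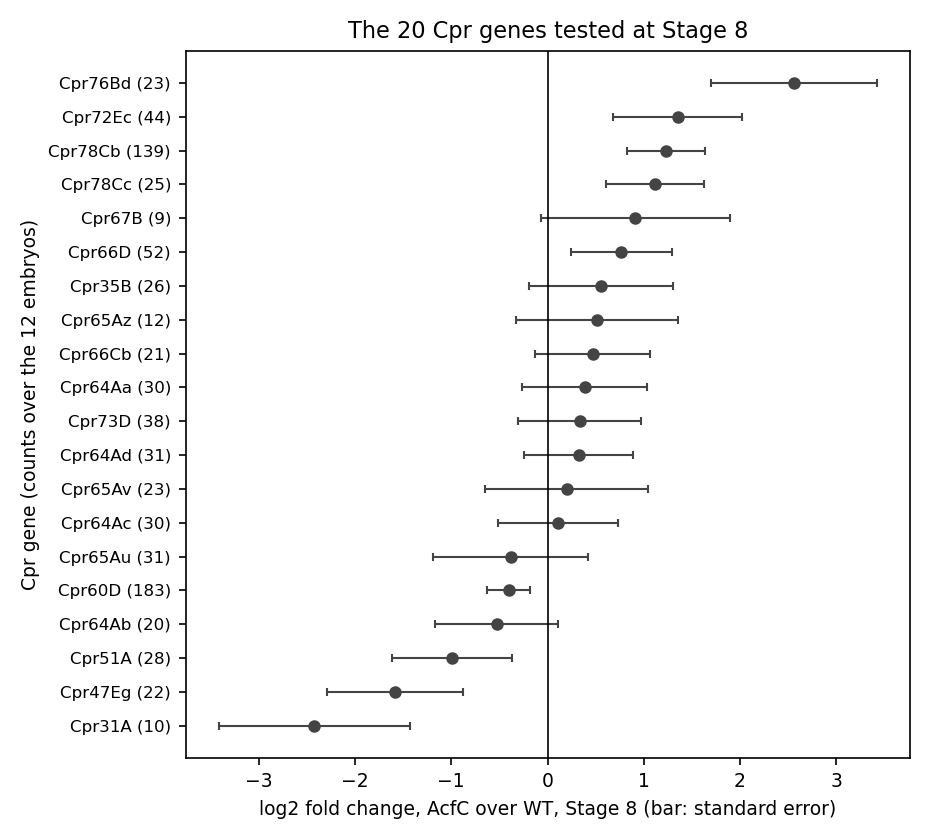
Log2 fold change of AcfC over WT at Stage 8 with its standard error for the 20 Cpr genes tested by edgeR, ordered by fold change, with the counts over the 12 embryos in brackets. None passed an adjusted *P* of 0.1, and the bars are widest for the members with few counts.

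The member called by DESeq2 was *Cpr78Cb* (log2 fold change 1.26, adjusted *P* = 0.0687). By edgeR its log2 fold change was 1.23 (SE 0.41, adjusted *P* = 0.138), and over the alternatives its adjusted *P* ran from 0.0687 to 0.273. As given above, its values overlapped, with 3 of 6 AcfC embryos above the highest WT embryo. Its cluster neighbour *Cpr78Cc* had a log2 fold change of 1.12 (SE 0.51, adjusted *P* = 0.307), and the 3 genes of the cluster summed to 2.54, 4.81 and 9.40 CPM in AcfC and 1.42, 1.96 and 3.45 CPM in WT.

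*Cpr60D* pointed the other way, with a log2 fold change of -0.40 (SE 0.23, adjusted *P* = 0.402). As a share of the Cpr counts it took 11.9 to 20.8% in AcfC embryos and 21.1 to 31.4% in WT embryos. This share was chosen after its values were seen and has no test. *Cpr78Cb* outnumbered *Cpr60D* in 3 of 6 AcfC embryos and in 1 of 6 WT embryos.

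*Cpr76Bd*, *Cpr31A* and *Cpr47Eg* also had an unadjusted *P* under 0.05, and are named here after their values were seen. The first, the only counted member of its cluster of 4 on 3L, had 6, 4, 2, 0, 2 and 6 counts in AcfC replicates 1 to 6 and 0, 1, 1, 0, 0 and 1 in WT. Its log2 fold change was 2.56 (SE 0.86, adjusted *P* = 0.108 by edgeR, 0.0721 to 0.217 over the alternatives). *Dred*, 136 bp from *Cpr76Bd*, had medians of 61.5 CPM in AcfC and 61.1 CPM in WT at Stage 8, and the part of its reads in the *Cpr76Bd* value was not tested. *Cpr31A* had 1 count in AcfC and 9 in WT (log2 fold change -2.43, SE 0.99, adjusted *P* = 0.144), and *Cpr47Eg* had 5 in AcfC and 17 in WT (log2 fold change -1.58, SE 0.71, adjusted *P* = 0.248).

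The other leading members showed no difference that passed the test. *Cpr66D* had 0, 1.23 and 3.63 CPM in AcfC and 0.501, 0.813 and 1.14 CPM in WT (log2 fold change 0.77, SE 0.52). *Cpr72Ec* had a log2 fold change of 1.35 (SE 0.67, adjusted *P* = 0.322). *Cpr35B*, *Cpr64Aa*, *Cpr64Ac*, *Cpr64Ad*, *Cpr65Au*, *Cpr66Cb* and *Cpr73D* lay between -0.38 and 0.55, each with an SE of at least 0.57, and *Cpr51A* at -0.99 (SE 0.62).

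Between genotypes at Stage 3, only *Cpr67B* and *Cpr72Ec* could be tested. Neither was called by edgeR or by DESeq2, where 12% and 14.5% of 7303 genes were. *Cpr72Ec* had an unadjusted *P* under 0.05, as did 24.6% of all genes. Its log2 fold change was 1.11 (SE 0.47, adjusted *P* = 0.162, and 0.0855 to 0.41 over the alternatives), with 3 of 5 AcfC embryos above the highest WT embryo. *Cpr67B* had a log2 fold change of 0.24 (SE 1.05, adjusted *P* = 0.909).

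The summed Cpr level at Stage 3 averaged 2.81 ± 2.20 CPM in AcfC (SD, n = 5) and 1.05 ± 0.32 CPM in WT (SD, n = 6), with overlapping embryos and a pooled ratio of 2.46 (1.64 to 3.74). Without AcfC replicate 3 the AcfC mean was 1.87 CPM. Without *Cpr65Au* and *Cpr47Ef*, chosen after seeing the data, it was 2.04 CPM, against 1.05 CPM in WT. Replicates 1 to 3 averaged 4.44 CPM in AcfC and 1.23 CPM in WT, and replicates 4 to 6 averaged 1.72 CPM in AcfC and 0.872 CPM in WT. No member separated the embryos of the genotypes, where 2.05% of genes did so upwards and 2% downwards. Only *Cpr72Ec* had a count in every embryo of a group, which such a separation needs, so no other member could show it.

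Markers of follicle cells and egg shell, which come from the mother, were also measured at Stage 3. Their sum over 10 genes was 2.04, 3.30 and 30.6 CPM (lowest, median, highest) in AcfC and 0, 0.783 and 4.02 CPM in WT, with 2 to 8 of the 10 detected per embryo in AcfC and 0 to 8 in WT. Only 4 of the 10 could be tested. Of these 4, 2 were called by edgeR, both higher in AcfC, and 2 by DESeq2, where 12% and 14.5% of all genes were called in either direction. The edgeR calls were the chorion protein genes *Cp36* (log2 fold change 5.23, SE 1.35, adjusted *P* = 0.0258) and *Cp38* (3.24, SE 1.05, adjusted *P* = 0.0798). In AcfC replicates 1, 3, 4, 5 and 6 these markers summed to 15.7, 2.04, 3.30, 30.6 and 3.10 CPM. The Cpr sums of the same embryos were 2.31, 6.57, 2.48, 0.794 and 1.89 CPM. The part of these markers in the Cpr sum was not tested. At Stage 8 they summed to 2.06 to 7.21 CPM in AcfC and 1.25 to 19.2 CPM in WT.

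Whether the genotype effect itself differed between stages could be tested for 8 members. By edgeR 0 were called, where 2.72% of 8698 genes were, and 0 had an unadjusted *P* under 0.05, where 15.3% did. DESeq2 called 0, where it called 6.66%. The lowest adjusted *P* was 0.522.

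The other lists give the setting of the family. Among 55 other cuticle proteins, led by the Tweedle genes *Twdlalpha*, *TwdlZ* and *TwdlY* (mean levels of 15.5, 10.1 and 1.74 CPM at Stage 8), the sum was 22.4, 38.5 and 42.9 CPM in AcfC and 22.3, 38.1 and 42.9 CPM in WT at Stage 8. It was under 1.4 CPM in every Stage 3 embryo. Of these genes, 7 of 8 tested were higher at Stage 8 in AcfC, where 51.5% of all genes were, and 3 of 4 in WT, where 48.5% were. Of the 8 tested in AcfC, 6 (*resilin*, *Lcp9*, *Edg78E*, *TwdlX*, *TwdlY* and *TwdlZ*) had 0 counts at Stage 3 and passed the filter through Stage 8 alone. Between genotypes, 0 of 15 were called at Stage 8 by edgeR or by DESeq2, where 4.28% and 6.91% of all genes were. Of the 15, 0 had an unadjusted *P* under 0.05, where 16.2% of all genes did.

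Among 29 genes of chitin and cuticle formation, *Cda5* (a chitin deacetylase) led at Stage 8 with a mean of 33.6 CPM, followed by *kkv* (chitin synthase, 13.1 CPM) and *mmy* (a UDP-N-acetylglucosamine pyrophosphorylase, 12.3 CPM). Here 7 were higher and 2 lower at Stage 8 of 13 tested in AcfC, and 6 higher and 2 lower of 9 in WT, beside the same shares of all genes (51.5% and 48.5% higher). *mmy* was one of the high genes at Stage 3, with means of 139 CPM in AcfC and 147 CPM in WT. Of 17 tested between genotypes at Stage 8, 0 were called by edgeR or by DESeq2, where 4.28% and 6.91% of all genes were. Of the 17, 0 had an unadjusted *P* under 0.05, where 16.2% of all genes did.

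Of 18 genes of the ecdysone pathway, led by *spo* (319 CPM at Stage 8), *Blimp-1* (195 CPM) and *dib* (137 CPM), 1 of 15 tested was called at Stage 8 by edgeR and 1 by DESeq2, and 4 had an unadjusted *P* under 0.05, where 4.28%, 6.91% and 16.2% of all genes did. The edgeR call was *dib*, an ecdysone synthesis enzyme, with a log2 fold change of -0.47 (SE 0.11, adjusted *P* = 0.0467). At Stage 3, 3 of 13 were called by edgeR and 3 by DESeq2, where 12% and 14.5% of all genes were, and 7 had an unadjusted *P* under 0.05, where 24.6% did. The 3 edgeR calls were all higher in AcfC, among them the receptor gene *EcR* (log2 fold change 0.33, SE 0.05, adjusted *P* = 0.000938).

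Of 11 regulators of the epidermal cuticle, led by *zld*, *SoxN* and *grh* (2150, 638 and 420 CPM), 3 of 10 tested were higher in AcfC at Stage 8 by edgeR, namely *crol* (log2 fold change 1.05), *D* (0.59) and *Ubr3* (0.50), and 1 of 7 at Stage 3 (*ovo*, 0.19), where 4.28% of all genes at Stage 8 and 12% at Stage 3 were called in either direction. DESeq2 called 5 at Stage 8 and 2 at Stage 3, where it called 6.91% and 14.5% of all genes. An unadjusted *P* under 0.05 was found for 6 at Stage 8 and 3 at Stage 3, where 16.2% and 24.6% of all genes had one. For *crol* and *Ubr3* the genotype effect also differed between stages (interaction, adjusted *P* = 0.0175 and 0.0538 by edgeR). *grh*, which encodes a transcription factor of epidermal cuticle genes, was not called at either stage (log2 fold change -0.32 at Stage 8, SE 0.11, adjusted *P* = 0.151). Of 45 chemoreceptor genes tested at Stage 8, a family that is likewise used late, 1 was called by edgeR and 1 by DESeq2, where 4.28% and 6.91% of all genes were. Of the 45, 7 had an unadjusted *P* under 0.05, where 16.2% of all genes did. The edgeR call was higher in AcfC (*Ir25a*, log2 fold change 1.25, SE 0.34, adjusted *P* = 0.0763). Chemoreceptor genes were detected at a median of 34.4% in AcfC and 30.2% in WT embryos at Stage 8, where Cpr genes were at 32.1% in AcfC and 31.4% in WT.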

How the data were processed

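The authors depleted rRNA, prepared nondirectional libraries from single embryos, mapped paired-end reads to a FlyBase genome with STAR 2.5.0a, which also counted reads per gene, and deposited raw counts per gene without normalization. Every column belonged to 1 embryo. Members and gene lists were chosen with earlier results of these data known. Positions and biotypes came from the Ensembl annotation of BDGP6, in which all 70 members matched by gene ID. No sequence was used.

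Following the study's methods, a protein-coding gene was tested where more than 50% of the embryos had a count, each comparison was fitted on its own embryos, and the cutoff for adjusted *P* was 0.1. Tests were two-sided, by edgeR 4.0.16 (R 4.3.3, quasi-likelihood, TMM), with Benjamini-Hochberg adjustment over every gene in the fit, and by DESeq2 1.42.0 as an alternative. The study itself tested with DESeq2, so the main test here is not the study's own. The fits were tested on simulated data. The study excluded an AcfC Stage 3 embryo for improper staging without numbering it. Replicate 2 was taken as that embryo, since only without it did mean normalized counts from the deposited table match the study's supplementary table. No other column was left out. Replicates are separate embryos, and nothing in the labels states whether they came from separate matings, so that *P*-values measure the spread between these embryos.

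CPM is a member's count per 1000000 protein-coding counts. A floor of 3 counts over the group stands for 0, ratios of pooled counts carry 95% exact intervals, and shares carry Wilson intervals. The expected number detected after thinning was computed from the hypergeometric distribution. Members named in the text are those called in any test, the 8 with most counts at Stage 8 and the 4 with most at Stage 3, and from each other list the 3 with the highest mean at Stage 8. Alternatives were DESeq2, RLE normalization, other filters on low counts, a cutoff of 0.05, all genes of the table, the replicate number or index set in the model, all 6 AcfC Stage 3 embryos, other scalings and member sets for the sums, and leaving out each embryo in turn. ERCC spike-ins were not used here.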

Additional observations from a re-analysis of the deposited data

Results flagged for a closer look

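In 33 sets of values (the family sum, the number detected and the named members with more than 10 counts in a group, each within 1 group), 3 embryos lay further from the rest of their group than Dixon's 95% limit, and chance alone gives about 1 in 20. *Cpr72Ec* reached 3.45 CPM in AcfC Stage 8 replicate 4, the smallest library, where the next embryo had 1.65 CPM. *Cpr66Cb* reached 1.15 CPM in AcfC Stage 8 replicate 2, where the next had 0.527 CPM. WT Stage 8 replicate 2 had 19 members detected, where the other 5 had 22 or 23.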

How the results depend on the processing

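Counts of called members at each stage against the other moved with the filter, since most members have few counts. Without a filter, 24 were called in AcfC and 23 in WT, and with the filter of edgeR (filterByExpr) 2 and 1. With all 6 AcfC Stage 3 embryos 4 were called in AcfC. Leaving out 1 embryo gave 2 to 7 calls in AcfC and 4 to 10 in WT, the low counts when an AcfC Stage 8 embryo and the high counts when a WT Stage 3 embryo was left out, which changes how many members pass the filter. Between genotypes at Stage 8, DESeq2 called 1 member (*Cpr78Cb*), and leaving out 1 embryo gave 0 to 1 calls, namely *Cpr65Aw* without AcfC replicate 1 (adjusted *P* = 0.0844), *Cpr76Bd* without replicate 3 (0.087) or 4 (0.0721) and *Cpr78Cb* without replicate 6 (0.097). At Stage 3 it gave 0 to 1, namely *Cpr72Ec* without AcfC replicate 5 (0.095) or WT replicate 3 (0.0855). The interaction gave 0 calls throughout. Same-numbered embryos did not deviate together in every pair (correlations of -0.47 to 0.31), so that the numbers were not taken as pairs. With the replicate number as a block, 0 and 0 members were called between genotypes at Stage 8 and Stage 3, 7 and 4 between stages in AcfC and WT, and 0 in the interaction, while the calls over all genes fell to 252 at Stage 8 and 312 at Stage 3. The difference in summed CPM (AcfC minus WT) was 3.10 to 5.51 at Stage 8 and 0.813 to 2.26 at Stage 3 with 1 embryo left out, and that in members detected -1.63 to 1.97 and 0 to 1.5. These 4 differences moved by less than 1 SD, pooled within the groups, under all alternatives, 3 of which (other member sets) were chosen after seeing the data. That limit is wide, since the SD of the sums at Stage 3 includes AcfC replicate 3, without which the difference was the 0.813 given above. The difference in members detected at Stage 8 changed sign within this limit. Log2 fold changes that changed sign when 1 embryo was left out belonged to members without a call, *Cpr67B* (-0.96 to 0.62 between genotypes at Stage 3, -0.0653 to 0.52 between stages in AcfC), *Cpr35B* (-0.10 to 0.93) and *Cpr64Ac* (-0.16 to 0.39) between genotypes at Stage 8, and *Cpr72Ec* (-0.0445 to 0.55) between stages in WT. Depth limits all of this, since a member at 0 in 12 Stage 8 embryos may have had up to 0.0623 CPM.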
